A study of Mus musculus with 1 sample.

Results

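The TRBV13 family, formerly the Vβ8 family, consists in the mouse of 3 functional variable (V) segments of the T cell receptor (TCR) β chain, TRBV13-1 (Vβ8.3), TRBV13-2 (Vβ8.2) and TRBV13-3 (Vβ8.1). Its members were the contigs, that is assembled receptor transcripts, which the contig table marks as cell-associated, productive and high-confidence, with chain TRB and 1 of these V names. The rule selected 152 of 981 productive TRB contigs, in 151 of 945 barcodes. TRBV13-1 had 61 contigs, TRBV13-2 had 32 and TRBV13-3 had 59. A further 80 contigs carried the name TRBV12-2+TRBV13-2, called the joined name here. The rule leaves them out, and values for them, or with them added, are given where a result changes with them.

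The cells were T lymphocytes from 150 µl of blood of 1 mouse that received the vehicle, phosphate-buffered saline (PBS), in the autochthonous model of small cell lung cancer (SCLC). In this model conditional deletion of Rb1 and Trp53, on a C57BL/6 background, is started by Cre recombinase from an adenovirus given into the trachea. T cells were enriched by negative selection, and 10x Genomics libraries of gene expression and of TCR sequences were made from the same cells. The series sets vehicle against a combination of anti-PD-1 and an ERBB2 inhibitor, and the combination was not analysed here. T cell identity held, since Cd3d, Cd3e and Cd3g were detected in both lineages at 6.10 to 10.4 UMIs per 10000 in TRBV13 barcodes. With 1 library there is no replicate and no test, and every interval below is an exact 95% interval that covers counting error only.

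A TCR β chain is made by joining 1 V, 1 diversity (D) and 1 joining (J) segment, with bases trimmed and added at the junctions. The first and second complementarity-determining regions (CDR1 and CDR2) are encoded by the V segment and mostly touch the MHC molecule. CDR3 spans the junction and mostly touches the peptide. CD4 T cells recognise MHC class II and CD8 T cells MHC class I, so that V segments can differ in use between these lineages. The family is best known for its pairing with the invariant TRAV11-TRAJ18 α chain in invariant natural killer T (iNKT) cells.

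The 3 members lie on the plus strand of mouse chromosome 6 (GRCm39, GENCODE vM39, matched by Ensembl identifier), each with a leader exon and a V exon. Trbv13-1 (ENSMUSG00000076467) spans 41092941 to 41093402, Trbv13-2 (ENSMUSG00000076469) spans 41098330 to 41098766 and Trbv13-3 (ENSMUSG00000076470) spans 41107081 to 41107519. Trbv12-2 (ENSMUSG00000094525, 41095785 to 41096298) lies between Trbv13-1 and Trbv13-2 and ends 2031 bases before Trbv13-2 starts. Between 402615 and 416732 bases separate the members from the first D segment, Trbd1.

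CDR1 and CDR2 are shown because they distinguish the members and do not change between cells. Every contig of a member had the same sequence from framework 1 to framework 3, 270 bases long, and this was the sequence of the reference transcript. TRBV13-2 and TRBV13-3 were 91.5% identical over it, TRBV13-1 and TRBV13-2 88.1%, and TRBV13-1 and TRBV13-3 84.8%. Capitals mark the bases at which the members differ. The CDR1 sequences were
TRBV13-1: aataGccaCAacTaC
TRBV13-2: aataAccaCAacAaC
TRBV13-3: aataAccaTGacTaT
and the CDR2 sequences were
TRBV13-1: tcatatgGTgctgGcaAc
TRBV13-2: tcatatgGTgctgGcaGc
TRBV13-3: tcatatgTCgctgAcaGc
Counted from 1 at the 5′ end of each loop and with TRBV13-2 first, TRBV13-1 carried A5G and A13T in CDR1 and G17A in CDR2. TRBV13-3 carried C9T, A10G, A13T and C15T in CDR1 and G8T, T9C and G14A in CDR2.

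The 16 germline bases that each V segment contributes to CDR3 are shown because they set what trimming leaves behind. They differed at 1 base, G10A from TRBV13-2 to both other members, so that TRBV13-1 and TRBV13-3 enter the junction with the same end.
TRBV13-1: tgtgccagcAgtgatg
TRBV13-2: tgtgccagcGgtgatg
TRBV13-3: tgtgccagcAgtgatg

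Contigs with the joined name had the V region of TRBV13-2. All 80 had the same sequence from framework 1 to framework 3, and it matched that of the TRBV13-2 contigs at 270 of 270 bases. What lay outside the annotated regions differed. Without the framework and CDR bases, joined-name contigs had a median of 228 bases left (range 219 to 582), as did TRBV12-2 contigs (median 228, 131 to 600, n = 57). TRBV13-2 contigs had a median of 203.5 (173 to 294), and 23 of 32 were below the shortest joined-name contig (71.9%, 53.3 to 86.3). The medians of TRBV13-1 and TRBV13-3 were 171 and 183 bases. The joined-name and TRBV12-2 contigs therefore lay at the same length, and most TRBV13-2 contigs lay below both.

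**Figure D1:**
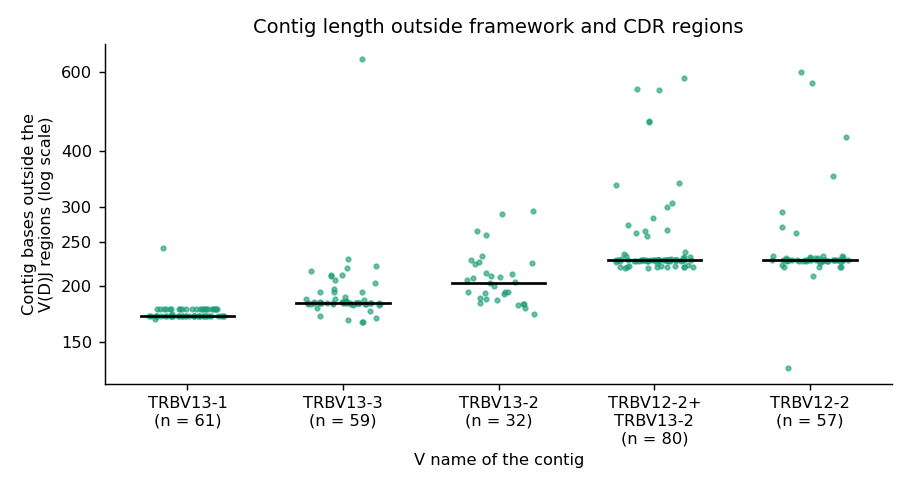
Contig bases outside the framework and CDR regions (y axis, log scale) for each V name (x axis); points are contigs and black lines medians. The joined-name and TRBV12-2 contigs share a median of 228 bases, above the 203.5 of TRBV13-2, 183 of TRBV13-3 and 171 of TRBV13-1.

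The gene expression matrix gave a second readout of the V segment that the rule did not use. A Trbv13-1 unique molecular identifier (UMI, a counted RNA molecule) was found in 61 of 61 barcodes with a TRBV13-1 contig, a Trbv13-2 UMI in 32 of 32 with TRBV13-2 and a Trbv13-3 UMI for 59 of 59 TRBV13-3 contigs, which lay in 58 barcodes. The medians were 11 Trbv13-1 UMIs (range 2 to 31), 3.5 Trbv13-2 UMIs (1 to 13) and 7 Trbv13-3 UMIs (1 to 15). In all 80 barcodes with a joined name the matrix held Trbv13-2 UMIs, with a median of 6.5 (1 to 28). Among barcodes with 1 productive TRB contig, the member named by the contig led all Trbv genes of the matrix in 56 of 56, 30 of 30 and 56 of 56, and Trbv13-2 led in 72 of 72 with the joined name. No member UMI was found in 84 B cell-type barcodes without a TRB contig (median 3657 UMIs), which allows a share of up to 3.57%. The contig and the matrix thus named the same segment in every single-contig barcode with a member name. With the joined name the matrix led with Trbv13-2, which is part of that name.

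Trbv13-2 UMIs were also found in barcodes whose productive contig named another V gene. Non-productive or missed rearrangements of Trbv13-2 in these barcodes were not excluded. Among barcodes with 1 TRB contig, 32.1% (20.3 to 46.0, 18 of 56) of those with TRBV13-3 had a Trbv13-2 UMI, against 3.57% (0.435 to 12.3, 2 of 56) of those with TRBV13-1. Over the 7 V genes downstream of Trbv13-2 up to TRBV20 the share was 22.8% (18.1 to 28.0, 66 of 290). Over the 8 V genes upstream it was 5.25% (3.32 to 7.84, 22 of 419), in barcodes of slightly higher median depth (5159 against 4571.5 UMIs). Thinned to 2500 UMIs, the shares were 14.3% (10.3 to 19.2, 37 of 258) and 2.62% (1.26 to 4.76, 10 of 382). Farther downstream, the 4 V genes past TRBV20 had 7.84% (2.18 to 18.9, 4 of 51), and TRBV31, which lies beyond the J segments on the other strand, had 6.38% (1.34 to 17.5, 3 of 47).

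The other members did not show this division. Trbv13-1 UMIs were found in 0.977% (0.202 to 2.83) of barcodes with an upstream V gene and 2.66% (1.28 to 4.84) of those with a downstream one up to TRBV20. The corresponding shares for Trbv13-3 were 0.891% (0.243 to 2.27) and 1.28% (0.265 to 3.70). Trbv12-2 UMIs, by contrast, were found in 2.48% (1.14 to 4.65) of barcodes with an upstream V gene and 9.69% (6.68 to 13.5) of those with a downstream one, but after thinning the shares were 1.22% (0.334 to 3.10) and 3.18% (1.46 to 5.95). They were present in 31.9% (21.4 to 44.0, 23 of 72) of joined-name barcodes and in 3.33% (0.0844 to 17.2, 1 of 30) of TRBV13-2 barcodes, at median depths of 6236.5 and 4614 UMIs. Thinned, these shares were 14.7% (7.28 to 25.4, 10 of 68) and 0 of 25 (0 to 13.7), with overlapping intervals. The levels were low: Trbv13-2 stood at 0.994 UMIs per 10000 (29 UMIs) in TRBV13-3 barcodes, against 9.29 per 10000 in TRBV13-2 barcodes.

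**Figure D2:**
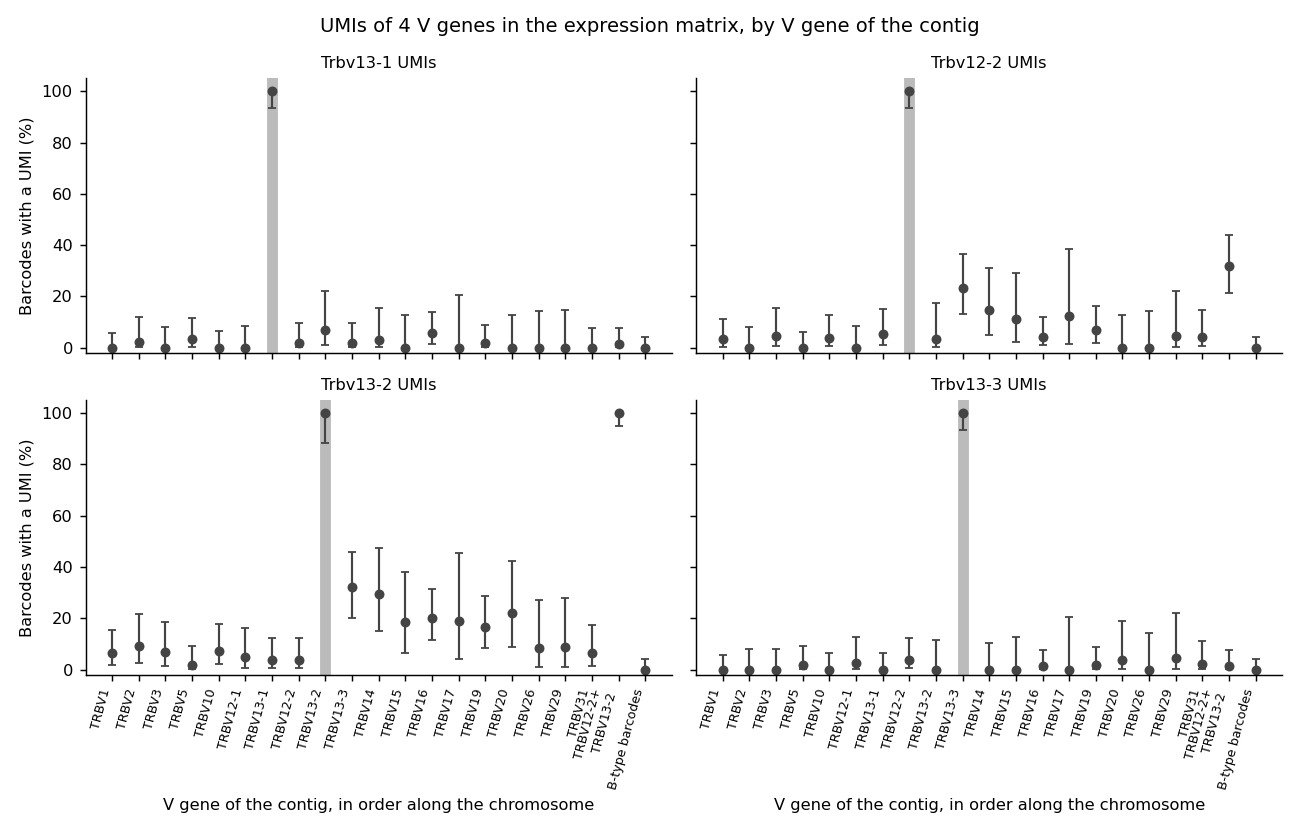
Share of barcodes with at least 1 UMI of Trbv13-1, Trbv12-2, Trbv13-2 or Trbv13-3 (y axis, %) by the V gene of their only productive TRB contig (x axis, chromosomal order, then the joined name and B cell-type barcodes without TRB contig); points are shares, bars exact 95% intervals, and the grey band marks the gene itself. Trbv13-2 UMIs reach 32.1% with TRBV13-3 and stay at 3.57% with TRBV13-1.

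Lineage was called from coreceptor UMIs. Barcodes with Cd4 UMIs only carried 263 TRB contigs, barcodes with Cd8a or Cd8b1 UMIs only 535, barcodes with both 38 and barcodes with neither 145. The lineages differed in depth, with a median of 3843.5 UMIs per CD4-only and 7290 per CD8-only barcode, and in the share of ribosomal protein UMIs, 20.8% against 32.6%. Their part in the lineage comparisons was not tested. The family's share was 2.14 to 5.45 points higher in CD8-only barcodes in 9 of 9 settings, with 3.53 in the main count. The smallest differences were 2.14 in barcodes with at least 10% ribosomal protein UMIs and 2.42 with lineage called at 2500 UMIs. The 9 settings count largely the same contigs, so their shared direction is no independent support. Whether depth or the ribosomal share contributes to the difference cannot be told from them.

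TRBV13 took 15.5% (13.3 to 17.9) of all productive TRB contigs. Its share was 12.2% (8.47 to 16.7, 32 of 263) in CD4-only and 15.7% (12.7 to 19.1, 84 of 535) in CD8-only barcodes, and the intervals overlapped. With the joined name added, the family took 23.6% (21.0 to 26.4, 232 of 981) of all contigs, 19.4% (14.8 to 24.7) in the CD4-only and 23.2% (19.7 to 27.0) in the CD8-only set. The family was thus more frequent in CD8-only barcodes under both countings, by less than the counting error.

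Each member on its own also had overlapping lineage intervals. TRBV13-1 made up 4.56% (2.38 to 7.83, 12 contigs) of CD4-only and 7.48% (5.39 to 10.0, 40 contigs) of CD8-only contigs. TRBV13-2 had 2.66% (1.08 to 5.41, 7 contigs) and 3.18% (1.86 to 5.04, 17 contigs), and TRBV13-3 had 4.94% (2.66 to 8.30, 13 contigs) and 5.05% (3.35 to 7.26, 27 contigs). The joined name had 7.22% (4.41 to 11.1, 19 contigs) and 7.48% (5.39 to 10.0, 40 contigs). The order of the members by contigs over all barcodes was TRBV13-1, TRBV13-3, TRBV13-2. The intervals of the first pair overlapped (6.22%, 4.79 to 7.92, and 6.01%, 4.61 to 7.69), and that of TRBV13-2 lay below both (3.26%, 2.24 to 4.57). Counted with the joined name, TRBV13-2 had 112 contigs (11.4%, 9.49 to 13.6) and was the most frequent V gene of the library, ahead of TRBV16 with 75.

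Some V genes outside the family separated by lineage, and none of the 3 members did. With only 3 members this cannot be told from the share over the other V genes. Of the 16 outside the family with at least 10 contigs, 4 had intervals that did not overlap (25%). TRBV12-2, the neighbour that shares the joined name, was 1 of them, at 0.760% (0.0922 to 2.72, 2 contigs) of CD4-only and 9.91% (7.51 to 12.8, 53 contigs) of CD8-only contigs. The joined-name contigs showed no such difference. Among contigs of called lineage, 67.8% (54.4 to 79.4, 40 of 59) of the joined name were from CD8-only barcodes, as were 70.8% (48.9 to 87.4, 17 of 24) of TRBV13-2 and 66.0% (62.1 to 69.7) of all other V genes. Outside the 2 lineages, the family held 18.4% (7.74 to 34.3) of contigs with both coreceptors and 20% (13.8 to 27.4) with neither, and TRBV13-3 supplied 6 of 7 of the former.

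**Figure D3:**
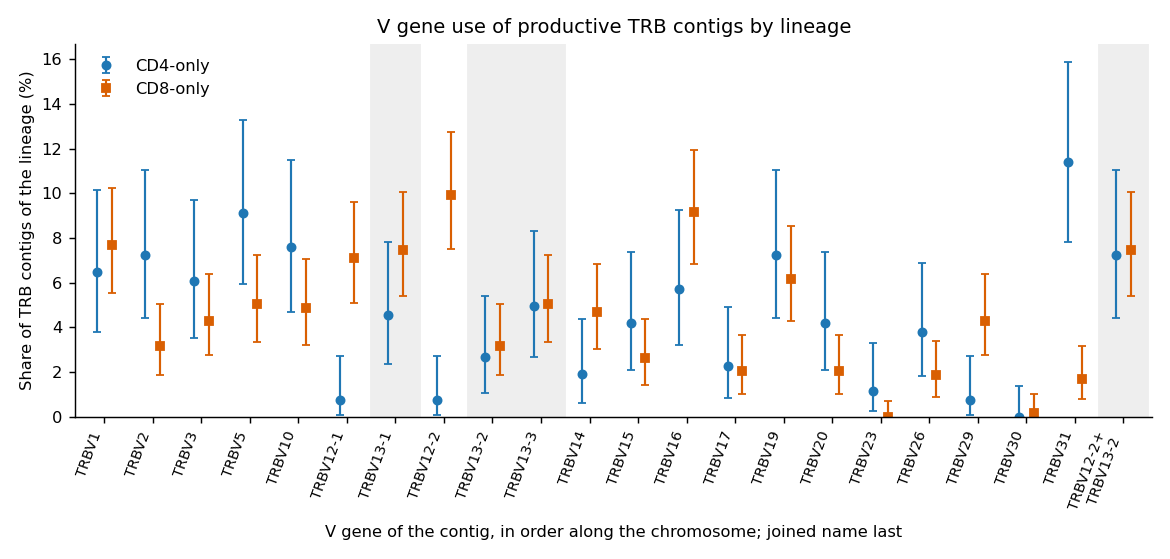
Share of each V gene (x axis, in chromosomal order with the joined name last) among the productive TRB contigs of CD4-only (blue circles, 263 contigs) and CD8-only (orange squares, 535 contigs) barcodes; bars are exact 95% intervals and grey bands mark names with TRBV13. The intervals of TRBV13-1, TRBV13-2 and TRBV13-3 overlap, whereas TRBV12-2 reads 0.760% and 9.91%.

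TRBV13 contigs used all 12 TRBJ genes of the library. In CD8-only barcodes the leading partners were TRBJ1-1 with 19.0% (11.3 to 29.1, 16 of 84), TRBJ2-7 with 16.7% (9.42 to 26.4, 14 contigs) and TRBJ2-5 with 15.5% (8.51 to 25, 13 contigs). With the joined name TRBJ2-7 led in these barcodes, with 18.5% (12.1 to 26.5, 23 of 124). In CD4-only barcodes TRBJ2-7 led with 25% (11.5 to 43.4, 8 of 32), followed by TRBJ1-3 and TRBJ2-3 with 12.5% each (3.51 to 29.0, 4 contigs). With the joined name TRBJ2-7 had 15.7% (7.02 to 28.6, 8 of 51) there, below its CD8-only share. TRBJ2-5 then had 13.7% in both lineages, 7 of 51 CD4-only and 17 of 124 CD8-only contigs. TRBJ1-1, the first J segment of the cluster nearest to the V genes, occurred once in CD4-only barcodes (3.13%, 0.0791 to 16.2). The TRBJ2 cluster took 68.8% (50 to 83.9) of CD4-only and 59.5% (48.3 to 70.1) of CD8-only family contigs.

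No TRBJ gene had lineage intervals that did not overlap, 0 of 12 for the family and 0 of 12 (0%) for the other V genes. With the joined name added 1 of 12 did. This was TRBJ1-1, with 1.96% (0.0496 to 10.4, 1 of 51) in CD4-only and 16.9% (10.8 to 24.7, 21 of 124) in CD8-only barcodes. With other V genes TRBJ1-1 had 14.2% (9.76 to 19.6, 30 of 212) and 12.2% (9.17 to 15.7, 50 of 411). The 16 CD8-only TRBV13 contigs with TRBJ1-1 came from 16 clonotypes and had 15 distinct CDR3 sequences. Counting each distinct CDR3 once, TRBJ1-1 with the joined name had 2% (0.0506 to 10.6, 1 of 50) and 16.7% (10.3 to 24.8, 19 of 114), and the intervals overlapped.

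**Figure D4:**
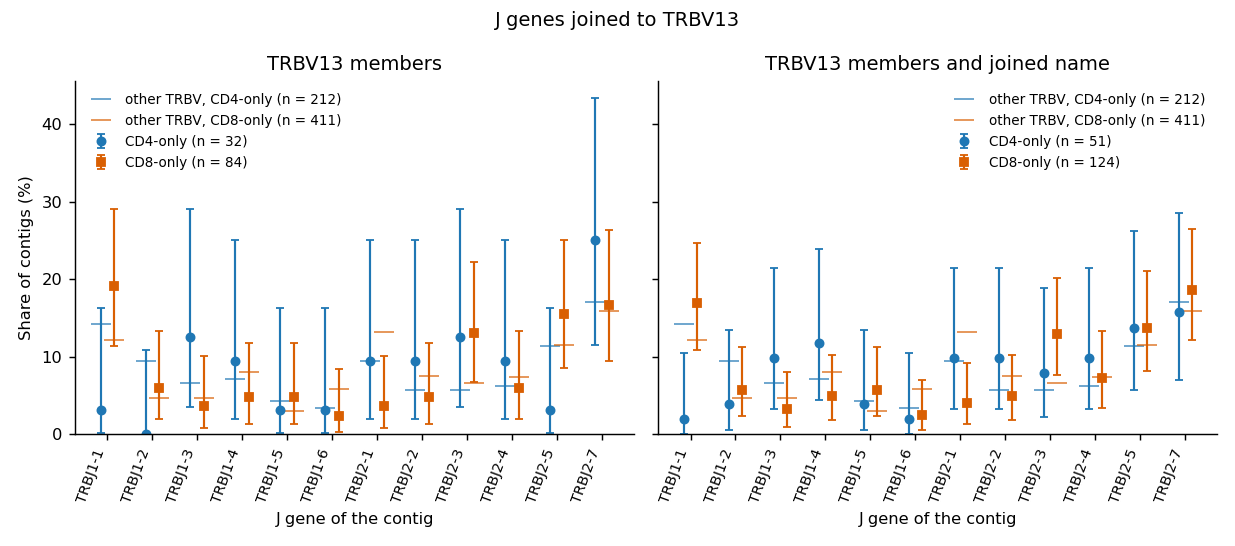
Share of each TRBJ gene (x axis) among TRBV13 contigs (y axis, %) in CD4-only (blue circles) and CD8-only (orange squares) barcodes, for the members (left) and with the joined name added (right); bars are exact 95% intervals and dashes the shares with other V genes. TRBJ1-1 with the joined name, at 1.96% and 16.9%, is the only pair whose bars do not overlap, which they do once each distinct CDR3 is counted once.

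The J genes of the members were counted over all barcodes. TRBJ2-5 was found with TRBV13-1 in 8 contigs and with TRBV13-3 in 9, but with TRBV13-2 in none of 32, whereas 11 of the 80 joined-name contigs had it. TRBJ2-1 was found in 1 of 61 TRBV13-1, 4 of 32 TRBV13-2 and 3 of 59 TRBV13-3 contigs. The intervals of the members overlapped for both J genes. The likeness of J profiles was measured as the total variation distance, which is 0 for equal and 1 for disjoint profiles, over 16 V genes with at least 20 contigs. The profile closest to TRBV13-1 was that of TRBV16 (0.215), followed by TRBV5 (0.224). TRBV2 (0.173) and TRBV29 (0.204) were closest to TRBV13-2, and TRBV5 (0.146) and TRBV14 (0.167) to TRBV13-3. The members were 0.201 to 0.345 apart from each other, and the joined name was 0.300 from TRBV13-2, 0.150 from TRBV13-1 and 0.141 from TRBV13-3. These distances rest on 32 to 80 contigs for each member and the joined name, of which TRBV13-2 had the fewest. Among the compared V genes named here, TRBV29 had only 27 contigs.

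A D segment was named by the authors' pipeline in 44 of 152 family contigs. TRBD1 was named in 17 of the 54 contigs with a TRBJ1 gene, and TRBD2 in none of them. In the 98 contigs with a TRBJ2 gene TRBD1 was named 16 times and TRBD2 11 times. TRBD2 lies downstream of the TRBJ1 cluster, so it is not available to a direct joint with TRBJ1. The constant genes followed the J cluster, with TRBC1 in 53 and no constant gene named in 1 of the 54, and TRBC2 in 98 of 98. The assembled V, D, J and C segments were thus in chromosomal order in every contig in which they were named.

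CDR3 had a median of 14 amino acids in TRBV13 contigs of either lineage, as it did with other V genes. The mean was 13.8 ± 1.44 (SD over 32 contigs) in CD4-only and 13.8 ± 1.60 (SD over 84 contigs) in CD8-only barcodes, with a range of 10 to 16 and 10 to 18. Both lineages had quartiles of 13 and 15. With other V genes the means were 13.7 ± 1.49 and 14.1 ± 1.46. The difference between lineages was small beside the spread between contigs.

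Mean CDR3 length over all barcodes was 13.9 for TRBV13-1, 14.5 for TRBV13-2 and 13.6 for TRBV13-3. CDR3s of at most 13 amino acids made up 15.6% (5.28 to 32.8, 5 of 32) of TRBV13-2, 37.7% (25.6 to 51.0, 23 of 61) of TRBV13-1 and 40.7% (28.1 to 54.3, 24 of 59) of TRBV13-3 contigs. In CD8-only barcodes they made up 55.6% (35.3 to 74.5, 15 of 27) of TRBV13-3 contigs, against 23.1% (5.04 to 53.8, 3 of 13) in CD4-only ones and 29.4% (25.1 to 34.1) of CD8-only contigs with other V genes. The mean length of TRBV13-3 was 13.1 ± 1.61 in CD8-only and 14 ± 0.913 in CD4-only barcodes, while that of TRBV13-1 was 13.9 ± 1.54 and 13.5 ± 1.88. For TRBV13-2 the CD8-only mean was 14.4 ± 1.46, and joined-name contigs had 14.3 ± 1.19. A length of 15 was found in 47.5% (31.5 to 63.9, 19 of 40) of CD8-only joined-name contigs, against 26.5% (22.3 to 31.1) with other V genes. Both lengths were picked after the distributions were seen. Counting each distinct CDR3 once, the CD8-only share at the short lengths stayed at 55.6% (35.3 to 74.5, 15 of 27) for TRBV13-3, and with other V genes it was 30.9% (26.2 to 35.8), an overlap. At 15 amino acids it was 45.9% (29.5 to 63.1, 17 of 37) for the joined name and 24.7% (20.5 to 29.4) with other V genes, which left less than 1 point between the intervals.

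**Figure D5:**
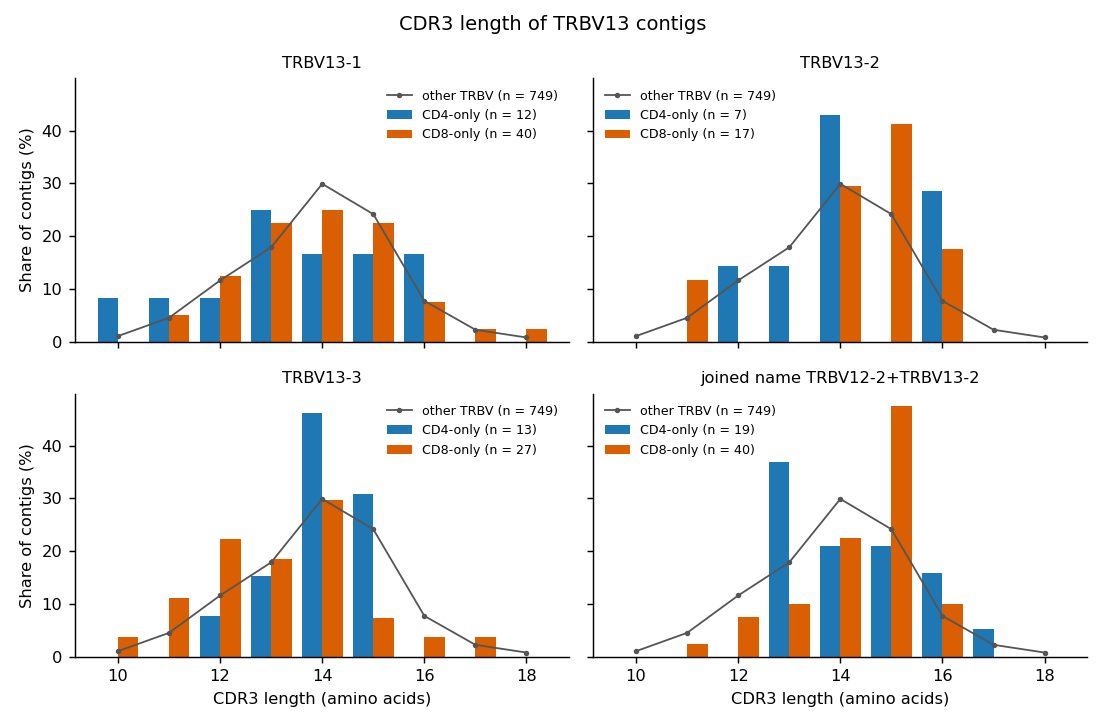
Share of contigs (y axis, %) at each CDR3 length in amino acids (x axis) for the members and the joined name, in CD4-only (blue) and CD8-only (orange) barcodes; the grey line is the distribution over 749 contigs with other V genes. CDR3s of at most 13 amino acids make up 55.6% of CD8-only TRBV13-3 contigs and 47.5% of CD8-only joined-name contigs have 15.

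Each CDR3 was divided into the 5′ bases that match the germline V end, the 3′ bases that match the germline J segment and the bases between them. Family contigs kept a median of 14 of the 16 V bases and 19 J bases, with 10 bases between them (range 0 to 20). The whole V end was kept in 27.9% (17.1 to 40.8, 17 of 61) of TRBV13-1 and 37.5% (21.1 to 56.3, 12 of 32) of TRBV13-2 contigs, but in 6.78% (1.88 to 16.5, 4 of 59) of TRBV13-3 contigs. The interval of TRBV13-3 lay below those of both other members, although its germline end is that of TRBV13-1. With other V genes the share was 22.3% (19.2 to 25.6, 154 of 691). TRBV10, with 58 contigs, had no germline end to compare and was left out here and by lineage. The ends of the other V genes were 14 to 21 bases long, so keeping the whole end is not quite the same measure. Since D segments begin with g, the last of the 16 bases can also come from a D segment or an added base, in all members alike.

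By lineage, the whole V end was kept in 6.25% (0.766 to 20.8, 2 of 32) of CD4-only and 28.6% (19.2 to 39.5, 24 of 84) of CD8-only family contigs. These intervals overlapped, as did those of each member and of the joined name alone. Only with the joined name added to the family were they separate, at 9.80% (3.26 to 21.4, 5 of 51) and 32.3% (24.1 to 41.2, 40 of 124). The last of the 16 bases can also come from a D segment or an added base, and its part in this difference between lineages was not tested. Counting each distinct CDR3 once gave 10.0% (3.33 to 21.8, 5 of 50) and 31.6% (23.2 to 40.9, 36 of 114). With other V genes the shares ran the other way, 23.4% (17.6 to 30.1, 45 of 192) in CD4-only and 20.5% (16.6 to 24.9, 79 of 385) in CD8-only contigs. None of 15 other V genes had lineage intervals that did not overlap (0%), each over fewer contigs than the family. The number of bases between the V and J ends had a median of 10 in both lineages, and J bases a median of 20 in CD4-only and 18 in CD8-only family contigs.

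Few TRBV13 cells shared a receptor. Of 152 contigs, 9 belonged to clonotypes of at least 2 barcodes (5.92%, 2.74 to 10.9), against 8.14% (6.29 to 10.3) with other V genes. None of the 59 TRBV13-3 contigs did, which allows a share of up to 5.08%. The 6 CDR3 sequences of members or joined-name contigs that were found in several barcodes are shown, because the same bases recurred in several cells, in part under both V names. Capitals mark the bases between the germline V and J ends.
TRBV13-2 with TRBJ2-7: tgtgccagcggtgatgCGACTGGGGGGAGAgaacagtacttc
TRBV13-2 with TRBJ1-5: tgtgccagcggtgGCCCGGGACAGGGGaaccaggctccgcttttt
TRBV13-2 with TRBJ1-1: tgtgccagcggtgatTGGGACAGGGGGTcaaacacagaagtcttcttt
TRBV13-1 with TRBJ2-3: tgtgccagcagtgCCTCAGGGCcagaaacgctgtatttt
TRBV13-1 with TRBJ2-7: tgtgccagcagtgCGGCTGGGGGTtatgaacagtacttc
joined name with TRBJ1-3: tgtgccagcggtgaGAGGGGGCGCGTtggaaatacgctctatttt

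The first of these was found in 5 CD8-only barcodes, which the authors' clonotypes divided into 3. A clonotype of 2 barcodes had the name TRBV13-2 and another of 2 had the joined name, and all 4 had the same α chain, TRAV3N-3 with TRAJ9. The fifth barcode, named TRBV13-2, had 13995 UMIs, a second β chain and the α chains TRAV7D-2 with TRAJ27 and TRAV13N-2 with TRAJ22. The TRBJ1-1 sequence was found in 4 barcodes of 3 clonotypes, 3 of them named TRBV13-2 and 1 with the joined name. Their α chain was TRAV16N with TRAJ40 in both barcodes that had any, 1 under each name, and the joined-name barcode also had TRAV6-1 with TRAJ39. By the β chain alone these sequences were found in 5 and 4 barcodes, where the authors' clonotypes with these sequences held 1 or 2 barcodes. The fifth barcode of the first sequence lacked the α chain of the other 4, so it was not shown to share their receptor. Barcodes of 779 and 614 UMIs were among those counted, below the barcode minimum of 1331 UMIs used as an alternative setting.

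The TRBJ1-5 sequence was the second β chain of a CD8 clonotype of 5 barcodes whose other β chain used TRBV15 with TRBJ2-5. It was assembled in 4 of the 5, once as TRBV13-2 and 3 times under the joined name, with 5 to 12 contig UMIs, and all 4 had TRAV9-2 with TRAJ22. Here the authors' clonotype held both names. The remaining pairs each had 2 barcodes of 1 clonotype and 1 α chain: TRBV13-1 with TRBJ2-3 in CD8-only, TRBV13-1 with TRBJ2-7 in CD4-only, and the joined name with TRBJ1-3 in barcodes without coreceptor UMIs. Of 36 barcodes with 2 productive β chains, 9 held a member and 8 a joined name, and none held both.

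A productive TRA contig was found in 82.1% (75.1 to 87.9, 124 of 151) of family barcodes. The most frequent V partner was TRAV6N-7 with 8.06% (3.94 to 14.3, 10 of 124), against 2.95% (1.73 to 4.68, 17 of 576) with other TRBV genes. TRAV13N-2, TRAV3N-3 and TRAV7-5 followed with 6 barcodes each (4.84%, 1.80 to 10.2). TRAV genes carry near-identical duplicates in this locus, so that single TRAV names are uncertain. Among J partners TRAJ22 led with 9.68% (5.10 to 16.3, 12 barcodes), followed by TRAJ37 and TRAJ40 with 5.65% each (2.30 to 11.3, 7 barcodes).

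TRAJ22 was also counted with the joined name, which was done after its values were seen. It was found in 20.3% (11.6 to 31.7, 14 of 69) of joined-name barcodes with a TRA contig and in 6.25% (4.42 to 8.55, 36 of 576) of those with other V genes. Counted once per clonotype, the shares were 18.5% (9.92 to 30.0, 12 of 65) and 6.58% (4.65 to 9.0, 36 of 547). The intervals of the family and the other V genes did not overlap for any of 33 TRAJ genes (0%), and with the joined name for 1 of 35 (2.86%), TRAJ22, at 13.5% (8.99 to 19.1, 26 of 193). Counted once per clonotype this was 12.4% (8.05 to 18.1, 23 of 185), and the intervals overlapped.

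The invariant chain of iNKT cells, taken by its V and J names, was found in few cells, each with a TRBV13 family chain. A TRAV11 gene joined to TRAJ18 occurred in 3 barcodes, 2 with TRBV13-1 and 1 with the joined name. The joined-name barcode held 2 of the 4 contigs with this pair. Of 576 barcodes with a TRA contig and only other TRBV genes none had the pair, which allows a share of up to 0.521%. Barcodes with another V gene beside a family or joined-name chain were left out of these. This count therefore cannot show that the pair is confined to the family. The TRBV13-1 chains used TRBJ2-3 and TRBJ2-7, and the joined-name chain TRBJ2-7. All 3 barcodes had UMIs of Zbtb16 (1, 1 and 3), the transcription factor PLZF of innate-like T cells, of Klrb1c (4, 2 and 2), which encodes NK1.1, and of Il2rb (4, 4 and 6). One was CD4-only, with a single Cd4 UMI, and the others had no coreceptor UMI. Of the 3, 2 also had a second β chain, with TRBV1 or TRBV17. The invariant chain of MAIT cells, TRAV1 with TRAJ33, was not found in the 124 family barcodes, which allows a share of up to 2.42%.

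Expression was compared between barcodes with 1 TRB contig of the family and those with another V gene, as UMIs pooled per 10000. In CD4-only barcodes (27 against 203) 236 of 3307 genes differed by at least 2-fold (7.14%), and the intervals of 81 did not overlap (2.45%). In CD8-only barcodes (80 against 377) the counts were 165 of 6822 (2.42%) and 145 (2.13%). Of 57 listed marker genes 5 were higher and 1 lower in CD4-only TRBV13 barcodes by the interval rule, and 2 were higher and 6 lower in CD8-only ones. The T cell genes Cd3d, Cd3e, Cd3g, Trac, Trbc1 and Trbc2 had overlapping intervals in both lineages. So did Cd4 in CD4-only and Cd8a and Cd8b1 in CD8-only barcodes. The coreceptor genes of the opposite lineage had no UMI, which the lineage call requires, so their overlap is not a result. B cell, platelet, erythroid and monocyte markers also had overlapping intervals.

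The 5 genes higher in CD4-only TRBV13 barcodes all lost their separate intervals, or were lower, when the TRBV13 barcode highest in each was left out. The values with other V genes were kept whole unless stated. In CD4-only barcodes S100a6, a calcium-binding protein gene of antigen-experienced T cells, stood at 14.3 per 10000 (12.3 to 16.5) with TRBV13 and 4.45 (4.02 to 4.92) with other V genes. A barcode of the TRBV13-1 TRBJ2-7 clonotype held 136 of its 179 UMIs, and without it the level was 3.75 (2.71 to 5.05). The same barcode held 59 of 74 UMIs of S100a4 and 57 of 104 of Itgb1, the integrin β1 gene. Without it S100a4 stood at 1.31 (0.732 to 2.16) and Itgb1 at 4.10 (3.01 to 5.45), against 2.59 and 4.53 with other V genes. With their highest barcode left out as well, the other V genes had S100a4 at 2.08 (1.78 to 2.41), which overlapped. Of 174 Ccl5 UMIs, 164 were in 1 other barcode, without which the level was 0.830 (0.398 to 1.53) against 10.4 (9.75 to 11.1). The other V genes had Ccl5 at 7.73 (7.15 to 8.35) without their own highest barcode. Il7r, the interleukin 7 receptor gene, was found in 24 of 27 TRBV13 barcodes and in 177 of 203 with other V genes. Its level was 15.8 (13.7 to 18.1) against 12.8 (12 to 13.6), and 14.6 (12.5 to 16.9) without the highest TRBV13 barcode. With the joined name added Il7r stayed higher, at 15.6 (14.01 to 17.3, 41 of 46 barcodes). Without the highest barcode of that set it was at 14.95 (13.4 to 16.7), which overlapped. S100a6 and Itgb1 were also higher with the joined name, at 8.855 (7.67 to 10.2) and 7.27 (6.2 to 8.47). The barcode of the TRBV13-1 TRBJ2-7 clonotype again held 136 of 201 and 57 of 165 UMIs. Without it S100a6 was lower, at 3.01 (2.32 to 3.83), and Itgb1 overlapped, at 4.99 (4.10 to 6.03). With their own highest barcode left out, the other V genes had S100a6 at 3.93 (3.52 to 4.38), which overlapped. With the joined name S100a4 overlapped, at 3.7 (2.95 to 4.58), and Ccl5 was lower, at 7.71 (6.61 to 8.94). Nkg7, a cytotoxic granule gene, was at 0.319 (0.0869 to 0.816) against 1.45 (1.21 to 1.73), with 4 UMIs in 3 barcodes.

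In CD8-only barcodes Ccl5, a chemokine gene of memory and effector CD8 T cells, stood at 37.3 per 10000 (35.7 to 39) with TRBV13 and 51.7 (50.9 to 52.6) with other V genes. It was found in 34 of 80 and 180 of 377 barcodes. Ly6c2, a surface marker gene of memory T cells, was at 8.49 (7.75 to 9.29) against 10.2 (9.82 to 10.6), and with the joined name added it was at 9.30 (8.66 to 9.97), which overlapped. Ccr7, the lymph node homing receptor gene, was at 6.79 (6.13 to 7.51) against 5.45 (5.18 to 5.73), and at 6.31 (5.78 to 6.86) with the joined name. It was found in 65 of 80 family barcodes and 292 of 377 with other V genes. Without its highest barcode the family was at 6.54 (5.88 to 7.25), still separate. The set with the joined name was then at 6.13 (5.61 to 6.69), which overlapped. Ccl5 was at 37.9 (36.6 to 39.2) with the joined name. None of these reached 2-fold. S100a4 reached 1.36 (1.07 to 1.70) with TRBV13, compared with 0.806 (0.705 to 0.918). A single barcode contributed 53 of the 76 UMIs, and without it the level was 0.422 (0.267 to 0.632). Gzma, which encodes granzyme A, was at 0.519 (0.347 to 0.745) against 1.01 (0.898 to 1.14) and at 1.11 (0.899 to 1.36) with the joined name added. A barcode of the TRBV13-1 TRBJ2-3 clonotype held 16 of the 29 Gzma UMIs of the family, and 1 barcode with another V gene held 51 of 285. Without the latter the other V genes had Gzma at 0.832 (0.729 to 0.946), which overlapped the whole family. With its own highest barcode also left out, the family was at 0.234 (0.125 to 0.401), which did not overlap. A single barcode with another V gene held 115 of 116 S100a8 and 103 of 104 S100a9 UMIs, the neutrophil markers, which had 0 and 1 UMI with TRBV13. Ikzf2, which encodes Helios, had 1 UMI with TRBV13 and 102 with other V genes, the latter in 36 of 377 barcodes, and 7 UMIs in 5 of 114 barcodes with the joined name added.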

How the data were processed

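Reads were processed by the authors with Cell Ranger, version 4 per the matrix header and on GRCm38 per the submitters' processing notes. The deposited matrix holds UMI counts, neither normalized nor filtered for cells, and the deposited contig table gives read and UMI counts, segments, CDR3 and clonotype for each contig. Sex and age of the mouse are not given in the labels used here. Barcodes of the contig table had 569 to 17444 UMIs (median 5065), and the members 1 to 37 contig UMIs.

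Contigs were joined to the matrix by barcode, and a lineage needed at least 1 UMI of its coreceptor genes and none of the other. Shares were given with exact Clopper-Pearson intervals and UMI sums with exact Poisson intervals (scipy 1.17.1, Python 3.11.15), and counts of 0 with the limit that 3 counts would set. No molecule or barcode is a replicate of the mouse. Germline V, D and J ends were taken from GENCODE vM39 transcripts by name, and CDR3 matched to them from either side without mismatches. Named J genes were the 3 largest in each lineage and those with separate intervals. Named TRA genes were the 3 largest with ties, and named marker genes those with separate intervals. The B cell-type barcodes had UMIs of at least 2 of Cd79a, Cd79b and Ms4a1, none of Cd3d, Cd3e or Cd3g, and no TRB contig. Gene ratios used genes with at least 50 UMIs outside TCR, immunoglobulin, mitochondrial and ribosomal protein genes. Doublets were not called. A further marker gene is not reported here. Adding the joined name to members, J pairing, CDR3 length, V ends and expression was chosen after seeing the data. So were counting each distinct CDR3 once and leaving out the barcode highest in a gene. The division of CDR3 at the germline ends was not among the planned results. Intervals and ratios were tested on simulated binomial or Poisson counts, and lineage calls on set examples. The simulated counts had no added spread between barcodes, so the effect of such spread on the expression intervals was not tested. Members and lists were chosen with earlier results of these data known.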

Additional observations from a re-analysis of the deposited data

Results flagged for a closer look

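The 80 productive cell contigs under the joined name TRBV12-2+TRBV13-2 lie outside the members. The share of barcodes with a Trbv13-2 UMI but a rearranged V gene downstream of it, up to TRBV20, was 22.8%, against 0 of 84 in B cell-type barcodes.

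The contig table also holds 483 rows with a member name in barcodes that are not called cells, 435 of them with 1 UMI. Of these 397 were productive, and 9 were both productive and of high confidence. In cells, 12 rows with a member name were not productive.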

How the results depend on the processing

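Of 173 recomputed values, 163 stayed within the counting interval (or 1.5 times a count) of the reported one. Counting clonotypes once, needing 2 coreceptor UMIs, barcode or contig UMI minimums, 1 TRB contig per barcode, lineage at 2500 UMIs and 10% ribosomal protein UMIs moved no share, no count of J genes and no median CDR3 length past that limit. Adding the joined name moved the family's share to 23.6% of all, 19.4% of CD4-only and 23.2% of CD8-only contigs. It moved TRBV13-2 to 9.89% and 10.7%, and the TRBJ genes whose lineage intervals did not overlap from 0 to 1, which was lost with each distinct CDR3 counted once. The genes past 2-fold fell to 116 of 3635 (CD4-only) and 82 of 7046 (CD8-only) with the joined name, and to 38 of 1511 and 29 of 4425 with a minimum of 100 UMIs.

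No member had separate lineage intervals. The CD8-only minus CD4-only difference of TRBV13-2 ran from -0.42 to 1.73 points and that of TRBV13-3 from -1.49 to 1.08 points, so neither had a fixed direction, while that of TRBV13-1 ran from 1.92 to 4.14. With 32 CD4-only family contigs, a J gene absent from that lineage could still make up 9.38%. No paired analysis was possible because the data analysed here are 1 library of 1 mouse, and no replicate could be left out.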
